A study of Mus musculus with 2 samples.

Results

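Small non-coding RNA genes are short transcription units whose products guide or carry out steps of RNA processing and gene silencing. They were taken here as gene IDs of the deposited transcript tables for which every transcript carries a RefSeq non-coding accession and the longest is under 200 bases by summed exon length. The rule found 1329 of 24532 gene IDs, at 1569 places in the genome. By symbol, 1173 start with Mir, 36 with Snora, 73 with Snord, 7 with Scarna and 5 with Rn, and 35 are other genes. The data are RNA-seq levels of sorted CD69-positive double-positive thymocytes, T cell precursors that carry both CD4 and CD8, taken at 6 weeks of age from C57BL/6 mice. The 2 libraries were 1 labelled wild-type (NSRP1f/f, floxed Nsrp1 alleles without Cre) and 1 labelled KO (NSRP1f/fCD4Cre, the same alleles with Cre driven by Cd4 regulatory sequence). Both groups thus carried floxed alleles, and the sources used here do not give the number of mice behind each library. Nsrp1 encodes NSrp70, a splicing regulator of nuclear speckles, and the comparison asks how its conditional deletion changes RNA in these cells. Levels are TPM, transcript abundance per length scaled to a fixed sum in each library.

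With 1 library per genotype there was no replicate check and no test. Each 95% interval below, exact Poisson for a level and exact Clopper-Pearson for a ratio, covers counting error only. Nsrp1 RNA was at 29.7 TPM under the wild-type label and 29.6 TPM under the KO label, so every direction below is between the libraries as labelled. All 7 double-positive thymocyte markers were present in both libraries, from Cd8b1 at 1377 and 1679 TPM to Ptcra at 13.6 and 16.0 TPM. The 3 B cell markers ranged from 4.11 to 14.4 TPM and the 3 myeloid markers from 1.93 to 59.5 TPM (Lyz2, 59.5 and 43.6 TPM). Epcam, of epithelium, was at 6.87 and 8.35 TPM, and Hba-a1 and Foxn1 were listed at 0 in both. The part of these other cells in the results was not tested. Annotated exons were covered by 4199 and 5076 megabases of reads (wild-type label, then KO). With mean depth taken as reads, a read over a small RNA gene was worth 0.572 TPM in the first and 0.444 TPM in the second. The 3 counts taken as the floor for a level of 0 were thus 1.72 and 1.33 TPM.

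MicroRNA (miRNA) genes are read into primary transcripts from which Drosha and Dicer cut a hairpin and then a mature strand, which pairs with target messenger RNAs mainly through its seed, bases 2 to 8. In T cell development the miR-181 and miR-17 families are known to set antigen sensitivity and survival. Some hairpins, called mirtrons, fill a short intron and are freed by splicing in place of Drosha. Small nucleolar RNAs (snoRNAs) lie mostly in introns of host genes: the C/D class (Snord) guides ribose methylation and the H/ACA class (Snora) pseudouridylation of ribosomal RNA, while Scarna genes act in Cajal bodies on spliceosomal RNA. The libraries were made with a TruSeq RNA kit, which is built for longer RNA. Reads from the mature small RNA, its precursor and unspliced host RNA cannot be told apart in such data.

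Of 1173 miRNA genes, 958 (81.7%) had a RefSeq hairpin (GRCm38.p6), and 919 of these stood at the same place in the deposited tables. Of the 287 miRNA genes that reached 1 TPM in either library, 246 stood at the RefSeq place. The hairpins of Mir7058, Mir6999 and Mir6922 are printed since they end at the splice sites of their hosts. Capitals mark their outer bases next to an exon, GU at the start of an intron and AG at its end.
Mir7058 hairpin: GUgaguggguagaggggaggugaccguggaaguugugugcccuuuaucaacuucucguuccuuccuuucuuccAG
Mir6999 hairpin: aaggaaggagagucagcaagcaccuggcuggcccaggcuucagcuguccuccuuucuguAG
Mir6922 hairpin: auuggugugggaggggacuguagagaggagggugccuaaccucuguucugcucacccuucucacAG

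The Mir7058 hairpin lies on the minus strand at chr7:126367971-126368045 and is the whole intron of 75 bases between 2 exons of Lat, the T cell receptor adaptor. Mir6999 lies at chr2:91944870-91944930 in Dgkz, a diacylglycerol kinase, and Mir6922 at chr11:60202262-60202327 in Srebf1, a regulator of lipid synthesis, both on the minus strand and at the 3' end of their introns. Mature strands of named miRNA genes are printed to show which share a seed, here in capitals.
mmu-miR-7058-5p: uAGAGGGGaggugaccguggaagu
mmu-miR-3064-5p: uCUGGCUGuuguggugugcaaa
mmu-miR-142b: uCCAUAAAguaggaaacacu
mmu-miR-6999-5p: aAGGAAGGagagucagcaagcac
mmu-miR-8114: uCACCCAUcuccucuccgccu
mmu-miR-186-5p: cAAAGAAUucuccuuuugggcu
mmu-miR-181a-5p: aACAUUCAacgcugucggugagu
mmu-miR-181b-5p: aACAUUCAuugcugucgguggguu
mmu-let-7d-5p: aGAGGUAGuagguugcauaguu
mmu-let-7i-5p: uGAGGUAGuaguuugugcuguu

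The strands of Mir181a-1 and Mir181b-1 share the seed ACAUUCA, and those of Mirlet7d and Mirlet7i share GAGGUAG. Over the 267 expressed miRNA genes with a mature entry there were 448 mature strands with 416 seeds, and 26 seeds were held by 2 or more genes. The seed of the miR-17 family, AAAGUGC, had 4 genes with at least 1 TPM (Mir17, Mir20a, Mir93 and Mir106b), and ACAUUCA had 3 (with Mir181d).

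For the snoRNA genes, sequences came from GENCODE M21 transcripts of the same symbol that overlap on the same strand; 102 of 109 matched. Abundant members in which the searched boxes were found are printed to show the conserved boxes of each class. Other abundant genes are not printed: no C box was found in Snord22 and Snord2, and no closing ACA in Snora81. Capitals mark the C box (TGATGA, within the first 20 bases) and D box (CTGA, within the last 20 bases) of Snord genes and the ACA (within the last 6 bases) of Snora genes, searched on the transcript strand.
Snora65: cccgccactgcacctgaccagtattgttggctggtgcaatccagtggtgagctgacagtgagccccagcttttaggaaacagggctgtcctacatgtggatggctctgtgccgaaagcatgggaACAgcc
Snord96a: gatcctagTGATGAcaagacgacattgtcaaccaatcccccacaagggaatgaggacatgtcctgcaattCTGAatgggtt
Snord100: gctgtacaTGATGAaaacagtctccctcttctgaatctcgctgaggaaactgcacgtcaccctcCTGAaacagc
Snord104: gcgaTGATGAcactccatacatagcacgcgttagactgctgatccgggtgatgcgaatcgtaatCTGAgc

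Snora65 lies at chr2:32963291-32963420 on the plus strand, Snord96a at chr11:48802032-48802112 on the plus strand, Snord100 at chr10:23785750-23785823 on the minus strand and Snord104 at chr11:106500993-106501062 on the plus strand. Both boxes were found in 38 of 66 Snord sequences (57.6%), and in 0.0365% of 32851 promoter windows of 77 bases. The closing ACA was found in 33 of 36 Snora sequences (91.7%), and in 6.204% of promoter windows of 132 bases. It was also found in 4 of 66 Snord sequences (6.06%), Snord100 among them. The deposited gene models were shorter than the GENCODE ones for 84 of the 102 matched genes, by a median of 11 bases over all 102.

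Of the 1329 genes, 391 (29.4%) reached 1 TPM in either library: 363 in that labelled wild-type, 325 in that labelled KO and 297 in both. Another 688 were listed at 0 in both. The classes differed in this share, with 287 of 1173 Mir (24.5%), 31 of 36 Snora (86.1%), 60 of 73 Snord (82.2%), 5 of 7 Scarna, 2 of 5 Rn and 6 of 35 other genes. The median expressed Mir gene stood at 3.62 and 2.81 TPM (pairs of values give the library labelled wild-type, then that labelled KO), the median Snora gene at 20.2 and 12.9 TPM and the median Snord gene at 18.02 and 16.1 TPM. Summed over all members, small RNA genes held 7189 TPM (0.719% of all TPM) under the wild-type label, against 6079 TPM (0.608%) under the KO label. In such bulk samples fewer cells of a type and less RNA per cell cannot be told apart.

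**Figure D1:**
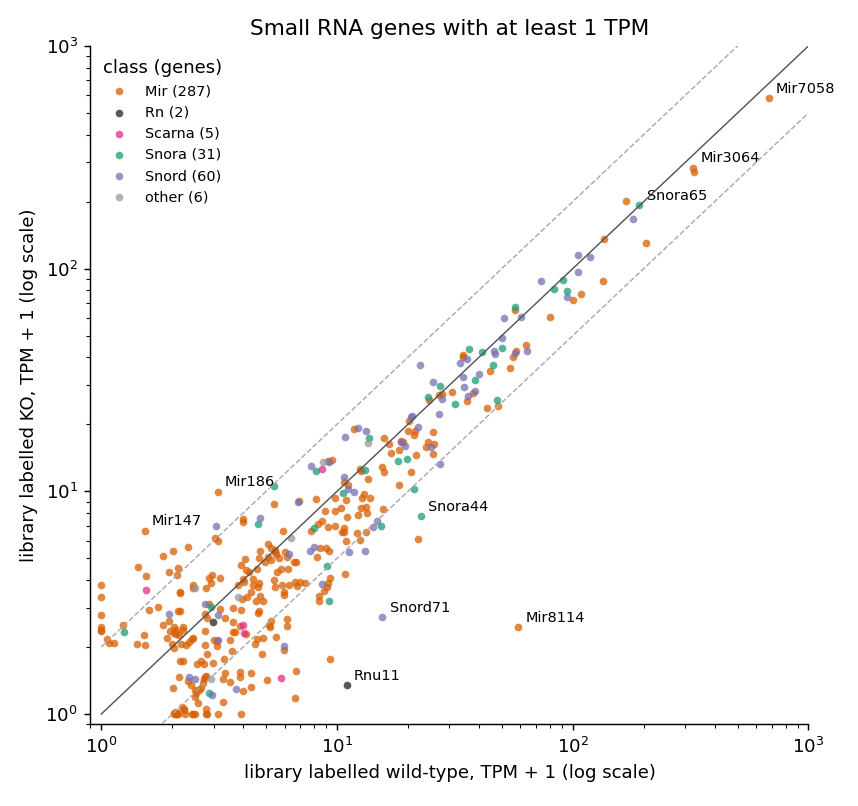
Levels of the 391 expressed small RNA genes on log axes as TPM + 1 in the library labelled wild-type (horizontal) and KO (vertical), coloured by class; the solid line marks equal levels and the dashed lines a log2 difference of 1. High genes such as Mir7058 and Snora65 lie near the solid line, and most points past a dashed line lie low, apart from Mir8114.

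Mir7058 was the most abundant, at 677 TPM (95% interval 639 to 717) with the wild-type label, against 582 TPM (551 to 615) with the KO label, a ratio of 0.860 (0.795 to 0.931). Its host Lat had 1781 and 1872 TPM, so the intron stood at 38.01% and 31.1% of the level of its gene. Mir3064, which overlaps an exon of the RNA helicase gene Ddx5, had 323 and 282 TPM. Mir142b had 326 and 270 TPM, while Mir142, which overlaps it on the other strand and gives the haematopoietic miR-142, was listed at 0 in both. Which strand the reads came from cannot be told apart there. Mir684-1, summed over 9 places, had 167 and 199 TPM, and its near-identical copies make its level uncertain. Mir6999 had 203 TPM (183 to 226) and 129 TPM (115 to 145), a ratio of 0.636 (0.542 to 0.744), and its host Dgkz had 1140 and 908 TPM. Of these 5 genes 4 were lower and 1 was higher in the library labelled KO, none by a log2 difference of 1.

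The snoRNA genes with the highest levels each differed by a log2 value of less than 1 in size. Snora65, in an intron of the ribosomal protein gene Rpl12, had 191 TPM (171 to 212) and 192 TPM (174 to 211). Snora81 in the translation factor gene Eif4a2 had 93.8 and 78.4 TPM, Snora31 in Tpt1 had 82.6 and 80.1 TPM, and Snora64 in Rps2 had 56.0 and 66.2 TPM. Ratios of these 4 Snora genes ran from 0.835 to 1.18, and each 95% interval held 1. Of the Snord genes, Snord96a in Rack1 had 180 and 166 TPM, Snord22 in Snhg1 had 118 and 112 TPM, Snord100 in Rps12 had 104 and 114 TPM, and Snord104, outside any same-strand host, had 105 and 95.1 TPM. Snord2, a second snoRNA of Eif4a2, had 93.1 and 73.5 TPM, a ratio of 0.790 (0.632 to 0.987). With n of 1 library each, these intervals say nothing of the spread between mice.

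**Figure D2:**
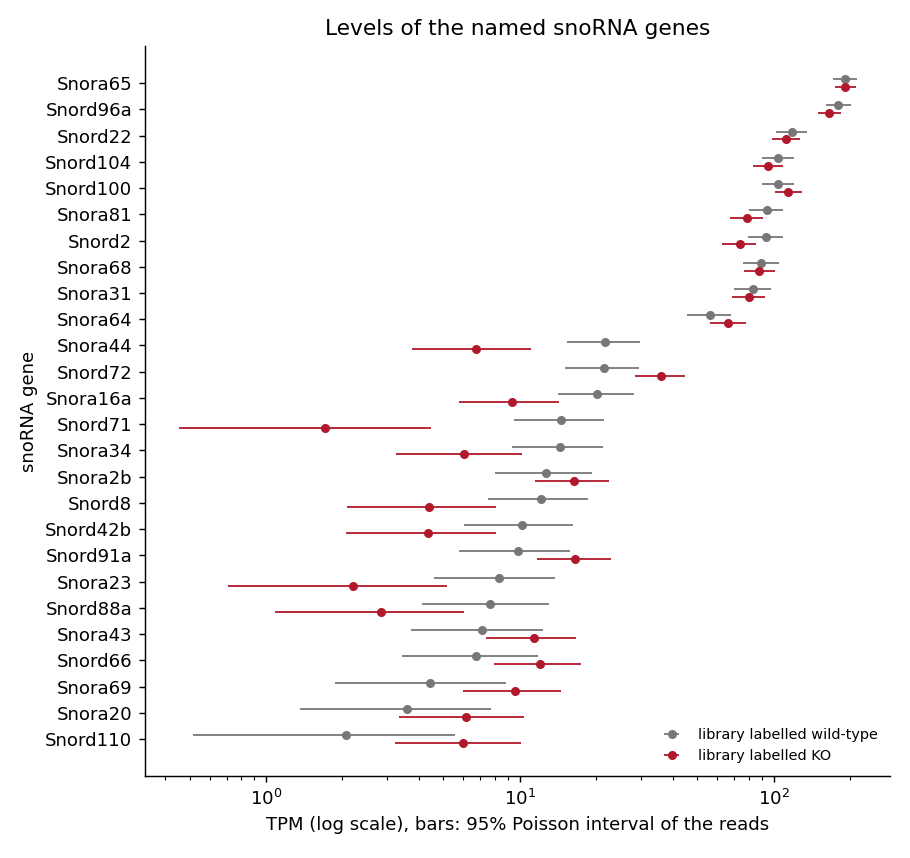
TPM of the 26 named snoRNA genes on a log axis, grey for the library labelled wild-type and red for the library labelled KO; bars are 95% Poisson intervals of the reads. The 10 genes with the highest levels have overlapping bars, and Snora44, Snord71 and Snora23 are among those whose red point lies well to the left.

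A gene was called higher or lower in the library labelled KO at a log2 difference of 1 or more in size, as log2((TPM + 1) KO / (TPM + 1) wild-type). By this rule of size 21 small RNA genes were higher (5.37% of 391) and 77 were lower (19.7%). Over all 12029 genes past the same filter, 0.657% were called higher and 1.37% lower, and over the 11638 that are no small RNA gene 0.498% and 0.756%. The small RNA genes were thus 26.6% of the 79 higher and 46.7% of the 165 lower calls. Their median log2 difference was -0.27 (273 below 0, 118 above), beside -0.07 over all 12029 genes. The filter fixes part of this count: 45 of the 77 lower genes had reached 1 TPM under the wild-type label only, and 14 of the 21 higher ones under the KO label only. Among the 297 that passed in both libraries, 7 were higher and 32 lower. By class, 19 Mir genes were higher and 59 lower (median -0.40), no Snora was higher and 5 were lower (median -0.12), 1 Snord was higher and 10 were lower (median -0.16), and the small Scarna, Rn and other classes gave 1 higher and 3 lower.

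Depth moved with these calls. Reads were estimated for a small RNA gene as its mean depth summed over places and libraries, and for other genes as covered bases divided by 202, the bases of a read pair. Of 138 small RNA genes with under 10 reads, 14 were higher (10.1%) and 43 lower (31.2%). Of 14 other genes with as few pairs, none was higher and 3 were lower (21.4%). Of 111 with 10 to 30 reads, 7 were higher (6.31%) and 23 lower (20.7%), beside 1.95% and 4.297% of 256 other genes with as many pairs. Of 80 with 30 to 100 reads, none was higher and 10 were lower (12.5%), beside 0.872% and 2.24% of 803 other genes. In each of these ranges a larger share of the small RNA genes was thus called lower, though only 14 other genes had under 10 pairs. The estimates are also unlike, since mean depth can count both mates of a pair. Matching on reads does not match on TPM, since a longer gene has less TPM for the same reads. The added 1 TPM then shrinks its difference more, so these shares are not like for like. Of the 62 with at least 100 reads none was higher and 1, Mir8114, was lower (1.61%), and their median log2 difference was -0.18. Other genes with at least 100 pairs, 10565 of them, were higher in 0.435% and lower in 0.530%, with a median of -0.06. The counting interval of the ratio lay wholly below 1 for 30 of the 77 lower genes and wholly above 1 for 2 of the 21 higher ones, Mir186 and Mir147. In all, 53 of the 391 intervals lay below 1 and 4 above. A total of 49 genes were under the floor of 3 counts in both libraries.

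**Figure D3:**
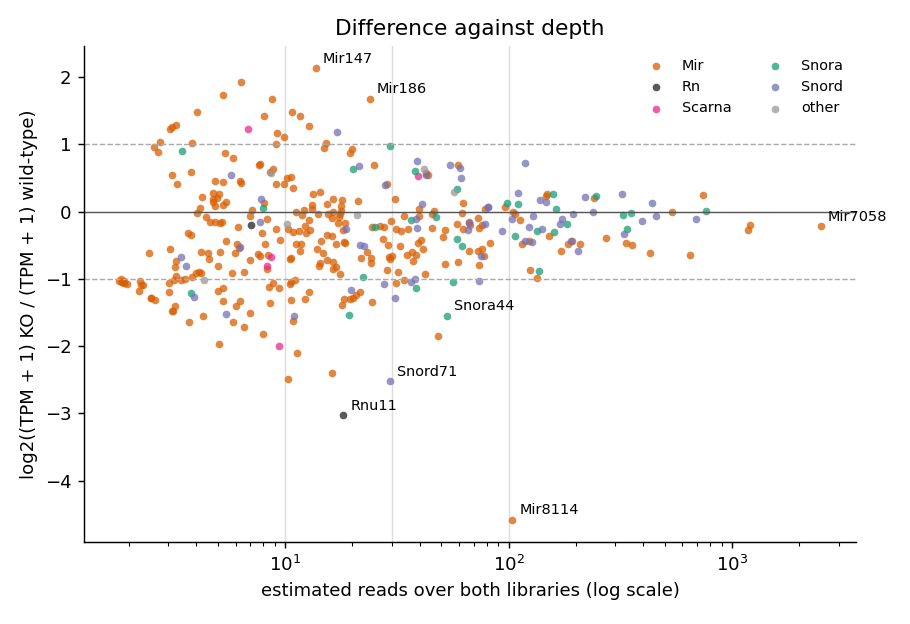
Log2 difference (vertical) against estimated reads over both libraries (horizontal, log scale) for the 391 genes, coloured by class, with dashed lines at a difference of 1 in size and grey lines at 10, 30 and 100 reads. Points spread widely under 30 reads and narrow to the right, where Mir8114 stands alone among genes with at least 100 reads.

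Among snoRNA genes with at least 5 TPM in a library, the 4 lowest differences of each class are given here. Also called lower, but under that level, were Snord15a (4.93 and 1.01 TPM), Snord111 (2.72 and 0.298 TPM), Snord93 (1.95 and 0.222 TPM) and Snora47 (1.86 and 0.240 TPM). The ratio intervals of Snord111, Snord93 and Snora47 held 1. Snord71, in an intron of Ap1g1, which encodes a clathrin adaptor subunit, had 14.6 TPM (9.48 to 21.4) and 1.71 TPM (0.453 to 4.46), 8.50-fold lower (2.90 to 34.6). Ap1g1 had 69.8 and 61.9 TPM. Snora44 and Snora16a share the host Snhg12, a non-coding snoRNA host gene with 100.7 and 73.0 TPM. Snora44 had 21.6 and 6.73 TPM, 3.22-fold lower (1.73 to 6.28), and Snora16a had 20.2 and 9.29 TPM, 2.18-fold lower (1.23 to 3.93). Snora23 in the importin gene Ipo7 had 8.27 and 2.20 TPM, and Snora34 in Kansl2, which overlaps Mir1291, had 14.4 and 6.01 TPM. Snord8 in Chd8, a chromatin remodeller, had 12.1 and 4.37 TPM, Snord42b in Rpl23a had 10.2 and 4.34 TPM, and Snord88a had 7.65 and 2.84 TPM. The ratio interval of Snord88a, 0.121 to 1.02, held 1. In the other direction Snord110 in Nop56, itself a snoRNP core protein gene, had 2.08 and 5.99 TPM, a ratio of 2.89 (0.866 to 13.1). Snord72 in Rpl37 had 21.4 TPM (15.1 to 29.4) and 36.0 TPM (28.6 to 44.7), below the log2 rule but with a ratio of 1.68 whose interval of 1.13 to 2.55 lay above 1. Snora69, Snora20, Snora43, Snora2b, Snord66 and Snord91a had ratios from 1.29 to 2.18, and the interval of each held 1.

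Genes of spliceosomal and Cajal body RNAs had few reads, and 2 were called lower and 1 higher. Rnu11 encodes the U11 RNA of the minor spliceosome, which removes a rare class of introns. It had 9.98 TPM (5.86 to 15.9) and 0.345 TPM, the latter under the floor, 28.9-fold lower with an interval of 3.82 to 2981. Rn4.5s, a rodent short RNA gene listed at 10 places, had 1.98 and 1.59 TPM. Scarna10 in the condensin gene Ncapd2 had 4.79 and 0.450 TPM, Scarna9 in Cep295 had 7.66 and 11.5 TPM, and Scarna2 had 0.544 and 2.61 TPM. Scarna8 had 3.01 and 1.52 TPM and Scarna3a had 3.05 and 1.302 TPM. Scarna10, Scarna2, Scarna8 and Scarna3a rested on under 10 reads each, and the ratio interval of Scarna2, 0.558 to 259, held 1. Of the other class, AF357399 in Rps16 had 12.5 and 15.6 TPM, Gm25500 in Taf1d had 7.76 and 12.6 TPM, Snhg9 had 5.40 and 5.16 TPM, Gm24148 in Ncl had 2.80 and 2.35 TPM, and Gm38670 had 1.49 and 2.70 TPM. None of these 5 was called.

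Of the 4 lowest and 4 highest differences among miRNA genes with at least 5 TPM, 4 fell at places shared with an exon of another gene on the same strand. Mir8114, at chr1:153899926-153900036 on the plus strand, overlaps an exon of the glutamine synthetase gene Glul. It had 57.6 TPM (46.9 to 70.1) with the wild-type label but 1.45 TPM (0.327 to 4.07) with the KO label, 39.7-fold lower (13.8 to 179). The overlapped Glul exon, with its depth scaled to TPM-equivalents, went the other way, from 28.7 to 64.4, and member and exon together had 86.4 and 65.9. Mir8092 had 5.66 and 0.187 TPM while the Zfp518a exon it overlaps had 0.289 and 3.48, together 5.95 and 3.67. Mir147 had 0.526 and 5.67 TPM while the exon of its host AA467197 had 13.6 and 3.47, together 14.1 and 9.14. Mir5625 had 2.05 and 5.19 TPM while the exon of Slc35f6 had 14.3 and 6.78, together 16.3 and 11.97. In each of these genes the member and the exon moved in opposite directions, and the log2 difference of the sum was -0.39, -0.57, -0.58 and -0.42. Each sum adds mean depths over the member and over the whole exon, which can differ in length, so it is no pooled read count. Mir147 has 79 bases, while the AA467197 exon runs from 122640701 to 122641076. AA467197 as a gene had 12.1 and 3.46 TPM, a log2 difference of -1.55.

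**Figure D4:**
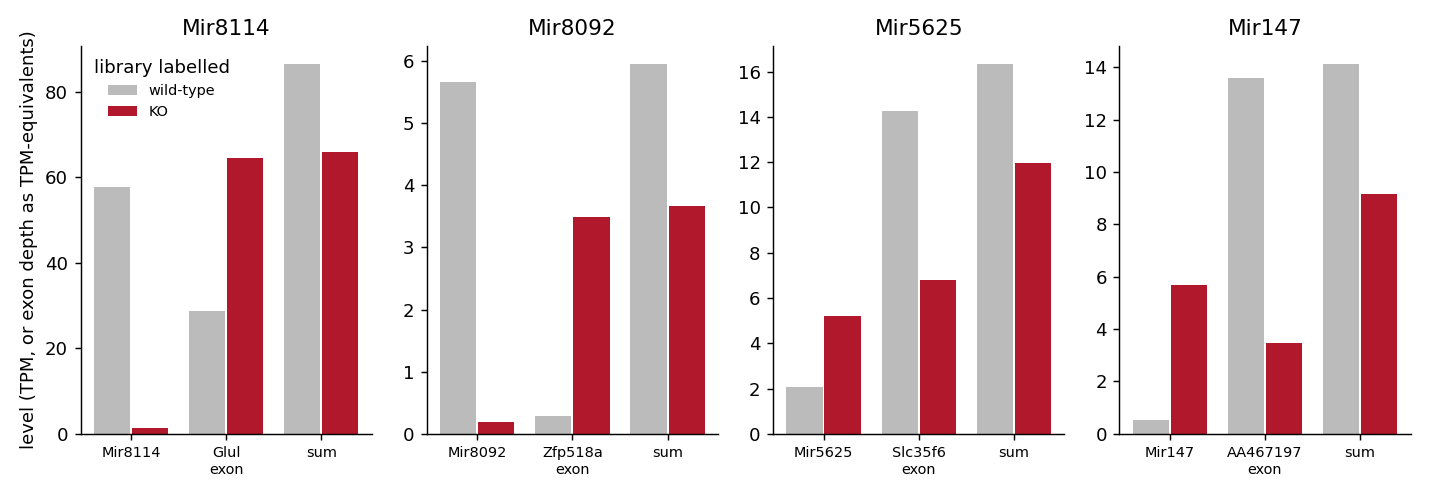
Levels of 4 miRNA genes, of the exon of another gene that each overlaps, and of their sum, as TPM or exon depth in TPM-equivalents, grey for the library labelled wild-type and red for that labelled KO. Grey and red swap order between the miRNA gene and the exon in each panel, and the sums differ by less than a log2 difference of 1. The sums add mean depths over stretches that can differ in length and are no pooled reads.

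In all, 50 of the 391 expressed genes overlapped an exon of another gene and 38 an exon of a gene that is no small RNA gene. Of the 35 of these at a single place, member and exon had differences of opposite sign in 16, and 7 were called. Of all 391 expressed genes 98 were called, so calls were not more frequent at these overlaps. In 4 of the 7, the genes named above, the exon moved the opposite way. The exons of the other three were far above the member, so that their sums say little of it: Mir8119 in the T cell kinase gene Lck had 12.3 and 5.57 TPM beside exon depth of 2144 and 2021, Mir6925 had 3.33 and 0.325 TPM beside 37.8 and 30.1, and Mir6914 had 1.25 and 0.0545 TPM beside 50.9 and 34.1. How the quantification divided reads between the overlapping models was not tested.

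The share of miRNA genes that were detected differed with their place. At least 1 TPM was reached by 195 of 549 intronic genes (35.5%), 27 of 139 exonic genes (19.4%), 20 of 87 on the strand opposite a gene (23.0%) and 45 of 398 intergenic genes (11.3%). Intergenic here means held whole by no transcript of a gene that is no small RNA gene. The class thus includes genes that overlap an exon in part, such as Mir8114 and Mir8092. Among 439 intronic hairpins at the RefSeq place, 163 end directly at the next exon, 4 start directly at the previous exon and 16 do both. Of the 163, 106 were expressed (65.0%), and of the 16, 10 (62.5%). Of the 256 that touch no exon, 58 were expressed (22.7%), with a median of 2.13 TPM in the library labelled wild-type against 3.79 TPM for the 106. All 163 end in AG, the closing bases of an intron, which follows from choosing hairpins that end at the next exon. Of the 256, 16 end in AG (6.25%). Median GC content was 56.9% in the 163 and 50.0% in the 256. The hosts of the expressed hairpins had median levels of 73.0 and 58.4 TPM in the library labelled wild-type. Reads that reach from an exon into the adjoining hairpin count for it, and the share of such reads was not tested.

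**Figure D5:**
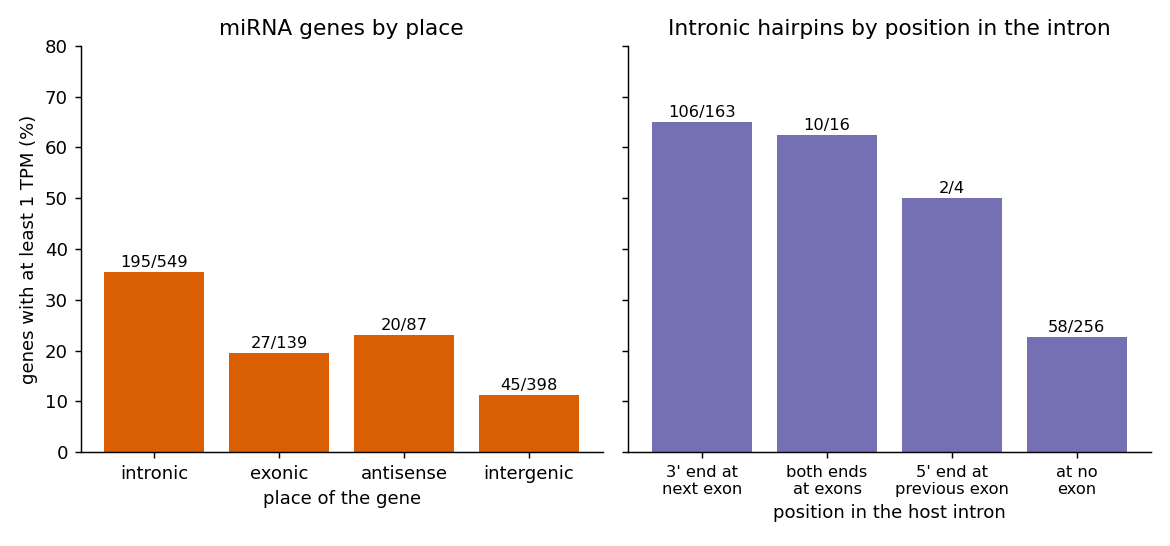
Percent of miRNA genes that reached 1 TPM in either library, by place (left) and, for intronic hairpins at their RefSeq place, by position in the host intron (right); numbers above bars are genes expressed of all. The bars for hairpins whose 3' end or both ends meet an exon are near 65%, and that for hairpins touching no exon is near 23%. Intergenic genes are those held whole by no transcript of a gene that is no small RNA gene, and some overlap an exon in part.

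A set of 11 expressed hairpins filled a whole host intron to within 3 bases. After Mir7058 came Mir1982 in Oaz1-ps at 135 and 134 TPM, Mir6970 in Skiv2l at 99.5 and 71.4 TPM, Mir7068 in Cherp at 20.7 and 13.5 TPM, and Mir877 in Abcf1, a known mirtron, at 17.3 and 14.3 TPM. The log2 differences of the 11 ran from -0.58 to 0.80, and none was called. Of the 106 expressed hairpins that meet an exon at the 3' end only, 21 were called lower and 8 higher. None of the 12 expressed hairpins that meet an exon at the 5' end or at both ends was called. Of the 58 that touch no exon, 19 were called lower and 2 higher. Over all 391 expressed genes 19.7% were lower and 5.37% higher. The uncalled hairpins had higher levels. Their median under the wild-type label was 14.1 TPM with both ends at exons and 34.8 TPM with the 5' end only. It was 3.79 TPM with the 3' end only and 2.13 TPM at no exon. Calls fell with depth, and a part of position beyond depth was not tested. Mir6922 was the lowest of the 106, with 8.32 TPM (4.61 to 13.8) and 0.760 TPM (0.0708 to 3.003), 10.9-fold lower (2.33 to 128), while Mir6921 in the same host Srebf1 had 14.8 and 11.2 TPM and Srebf1 itself had 120 and 96.8 TPM.

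Hosts were the non-member genes whose transcript holds the small RNA gene on the same strand. Of the 391 genes 317 had a host. They lay in 277 hosts, 259 of them protein-coding and 17 long non-coding, and 29 held 2 or more. The median log2 difference of hosts was -0.10. Of the hosts 2 were called, both lower: AA467197 (12.1 and 3.46 TPM), and the adaptor gene Sh2b3 (44.0 and 15.1 TPM), whose Mir7031 had 3.59 and 3.48 TPM. Of the 66 lower genes with a host, none had a host lower by a log2 difference of 1, and 58 had a host within 0.5 of 0. Of the 15 higher genes with a host, none had a host called higher, and 13 had a host within 0.5 of 0. Over the 11638 genes that are no small RNA gene 0.498% were called higher and 0.756% lower. Few such pairs could thus occur. The share of all hosts within 0.5 of 0 was not counted, so these counts say little of member and host. Intronic members stood at a median of 5.35% (wild-type label) and 3.93% (KO label) of host TPM. Among intronic members only Mir7674 in the nucleoporin gene Nup214 (43.6 TPM against 39.7 TPM) and Mir8116 in Ache exceeded their host in both libraries. The exonic Mir5130 (3.11 and 3.42 TPM) did so too, in Kctd12, which was listed at 0 in both.

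Of the 29 hosts with 2 or more members, some held members with like differences and others did not. In Rps12 the log2 differences of Snord100 and Snora33 were 0.13 and 0.12, and in Eif4a2 those of Snora81 and Snord2 were -0.26 and -0.34. Rpl13a held Snord35a, Snord34, Mir5121, Snord32a and Snord33, whose log2 differences ran from -0.45 to 0.22 while their summed level was 239 and 226 TPM. The 4 genes in Snhg12 ran from -1.55 to -0.06, summing to 124 and 90.7 TPM, and the host itself was at -0.46. Mcm7, a replication helicase gene, held the Mir25, Mir106b and Mir93 cluster: Mir25 had 19.2 and 19.8 TPM, Mir106b 8.21 and 4.41 TPM and Mir93 2.12 and 5.001 TPM (its ratio interval, 0.683 to 10.8, held 1), summing to 29.5 and 29.2 TPM. Mir186 in Zranb2 had 2.12 TPM (0.540 to 5.62) and 8.98 TPM (5.50 to 13.8), a ratio of 4.24 (1.38 to 18.2), and Zranb2, a splicing factor gene, had 111 and 117 TPM. Mir3100 in Dmpk had 5.71 and 0.567 TPM, and Dmpk had 6.07 and 6.25 TPM.

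Of 49 listed miRNA genes known from thymocytes and lymphocytes, 48 were in the tables, 16 were listed at 0 in both libraries and 15 reached 1 TPM. Of these 15, 3 were called higher and 2 lower, with a median of -0.26 beside -0.07 over all genes. Over all 391 expressed small RNA genes 5.37% were called higher and 19.7% lower, and over all 12029 genes 0.657% and 1.37%. The called genes were Mir20a, Mir181d and Mir363 (higher) and Mir23a and Mir150 (lower), and the ratio interval of each held 1. Mir181b-1, of the miR-181 family that tunes T cell receptor sensitivity, had 34.5 TPM (26.3 to 44.4) and 24.5 TPM (18.5 to 31.9), and its neighbour Mir181a-1 had 4.40 TPM (1.86 to 8.78) and 7.74 TPM (4.54 to 12.3). The pair summed to 38.9 and 32.3 TPM. Mir181d was listed at 0 and had 1.45 TPM, Mir181c had 0.0386 and 0.435 TPM, and Mir181a-2 and Mir181b-2 were listed at 0 in both. Mir181d and Mir363 (listed at 0, then 1.35 TPM) were both called higher, with levels just above the floor of 1.33 TPM.

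The Mir17 cluster, which promotes lymphocyte survival, held members that pointed opposite ways on few reads. Mir20a had 0.433 and 3.56 TPM and was called higher, Mir18 had 1.87 and 3.08 TPM and Mir19a 0.935 and 1.62 TPM. Mir17 had 1.75 and 0.471 TPM, Mir19b-1 had 4.47 and 2.72 TPM and Mir92-1 had 0.320 and 0.311 TPM. Together the 6 had 9.78 and 11.8 TPM on 43.6 reads, a log2 difference of 0.24. The Mir23a, Mir27a and Mir24-2 cluster summed to 6.88 and 3.19 TPM on 19.2 reads, with Mir23a (3.32 and 0.527 TPM) called lower and Mir24-2 at 2.61 and 2.005 TPM. Mir150, a miRNA of mature lymphocytes, had 2.29 and 0.444 TPM on 5 reads in all. Mirlet7d had 5.12 and 4.09 TPM and Mirlet7i had 4.25 and 4.58 TPM. The other listed genes stayed under 1 TPM in both libraries, among them Mir155 (0.191 TPM and listed at 0), Mir21a (0.00356 and 0.0898 TPM), Mir223 (0.144 TPM and listed at 0), Mir15a, Mir15b, Mir16-1, Mir16-2, Mir27a, Mir92-2, Mir128-1, Mir221, Mir29b-2, Mir29c, Mirlet7b and Mirlet7g. Listed at 0 in both were also Mir18b, Mir19b-2, Mir20b, Mir29a, Mir29b-1, Mir106a, Mir125b-2, Mir128-2, Mir222, Mirlet7a-1, Mirlet7c-1, Mirlet7e and Mirlet7f-1.

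None of the genes for proteins that make or use small RNAs was called in either direction. Over all 12029 genes past the same filter 0.657% were called higher and 1.37% lower, so lists of this size would hold few calls. Of those genes 7394 were below 0, with a median log2 difference of -0.07. Of 14 miRNA processing and effector genes with at least 1 TPM, 13 were below 0 with a median of -0.34. The lowest were the Argonaute genes Ago2 (73.3 and 41.2 TPM, -0.82) and Ago3 (11.8 and 6.50 TPM, -0.77), and the highest were Ddx5 (1374 and 1476 TPM, 0.10) and Prkra (12.4 and 11.98 TPM, -0.05). Drosha had 41.3 and 32.7 TPM and Dicer1 had 45.2 and 35.3 TPM. Of 17 snoRNP protein and assembly genes 16 were above 0, with a median of 0.20, from Naf1 (11.8 and 9.003 TPM, -0.35) and Rpap3 (30.4 and 30.6 TPM, 0.01) to Nop10 (109 and 135 TPM, 0.31) and Pih1d1 (57.2 and 73.4 TPM, 0.35). The 9 Cajal body and lariat processing genes had a median of 0.02, from Tent4b (-0.28) and Wrap53 (-0.08) to Dbr1, the lariat debranching enzyme (37.9 and 40.2 TPM, 0.08), and Smn1 (0.23). The 20 measured genes for proteins of small nuclear RNA, 7SK and RNase P or MRP had a median of 0.06, from Snapc3 (-0.41) and Snapc4 (-0.26) to Pop4 (0.34) and Rpp21 (0.40). The list of non-coding snoRNA host genes leaves out other such hosts, among them 2410006H16Rik and Snhg16. It includes Snhg9, itself a small RNA gene here. Of its 16 measured genes 13 were below 0, with a median of -0.06, near the -0.07 of all genes. They ran from Snhg12 (-0.46) and Zfas1 (172 and 135 TPM, -0.35) to Snhg4 (0.13) and Snhg20 (0.27).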

How the data were processed

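RNA of sorted CD69-positive double-positive thymocytes was sequenced in 2 libraries, 1 per genotype. HISAT2 served for alignment and mm10 (GRCm38) as genome build, per the submitters' processing notes; the sources used here give neither its version nor filters on reads. The authors then estimated levels of RefSeq transcripts with StringTie 1.3.3b in its mode without assembly, per the file headers. The deposited tables give TPM, FPKM and coverage for each transcript and gene; the authors' coverage is mean read depth per base, without scaling to library size. No source used here says whether counting used strand, so overlapping genes and near-identical copies are uncertain.

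TPM was summed by gene ID; 24462 of 24532 IDs were matched by ID to symbols of the RefSeq table of GRCm38.p6, and 2 members were not. Differences are log2((TPM + 1) KO / (TPM + 1) wild-type) for genes that reached 1 TPM in either library, a scale that understates changes of low genes; a size of 1 or more was called, which is a rule and not a test. TPM keeps no depth, so reads over a small RNA gene were taken as its mean depth. This is an estimate and no count: a read may cover part of a gene, and both mates of a pair may cover it. Median length was 79 bases over all members and 119.5 over Snora genes, with Snora genes of up to 198 bases. Intervals, floor and depth ranges rest on this estimate, and its error was not tested. The estimate puts the total at 0.572 TPM a read under the wild-type label and 0.444 TPM under the KO label. Intervals and the floor of 3 counts cover counting error only, since PCR copies are not independent molecules. Exon depth was scaled to TPM-equivalents by the same factors.

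Named genes followed a rule: per class, the 5 highest mean TPM and the 4 highest and 4 lowest differences among genes with at least 5 TPM in a library and 5 reads, their hosts, the listed thymocyte miRNA genes, and the 2 highest and 2 lowest of each processing list. Genes named for an overlap, a shared host or a filled intron, and Drosha and Dicer1, were chosen after their values were seen. A marker and a host gene with its snoRNA, which the rule also takes, are not reported here. Sequences were allowed for at most 12 miRNA and 8 snoRNA genes by mean TPM. The members and lists were chosen with earlier results of these data known. The alternatives were other pseudocounts, filters, length limits, FPKM, a median-ratio rescaling and overlap rules. Tools were scipy 1.17.1, pandas 2.3.3, numpy 2.4.6 and, for plots, matplotlib 3.10.9 under Python 3.11.15.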

Additional observations from a re-analysis of the deposited data

How the results depend on the processing

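With 1 library per genotype no library could be left out. The count of 391 expressed small RNA genes was 202 with a filter of 5 TPM, 1329 with no filter and 253 with at least 10 reads. The 21 higher genes became 34 with a pseudocount of 0.1 and 0 with 5, 4 with the 5 TPM filter, 7 with FPKM and 7 with at least 10 reads; the 77 lower genes became 7, with the pseudocount of 5, 28 with the 5 TPM filter, 18 with FPKM and 34 with at least 10 reads. The median of -0.27 became -0.19 with a pseudocount of 5, 0 with no filter, -0.15 with FPKM and -0.22 after rescaling by the median ratio of other genes; that of the hosts, -0.10, became -0.0040 with FPKM and -0.035 after rescaling. Of the 50 genes that overlap an exon, 9 lay wholly inside a same-strand exon. The other 29 of 48 planned values stayed within 1.5 times the count or inside the interval of the median. Of 325 values for 65 named genes 321 stayed inside their counting interval; with a pseudocount of 5, Mir8114 was at -3.28, Mir6922 at -1.21, Mir8092 at -1.04 and Rnu11 at -1.49. The sign changed in 4 named genes, none of them called. No paired analysis was possible because each genotype has 1 library. Levels under the floor of 3 counts, 1.72 and 1.33 TPM, cannot be told from 0 at this depth, and intervals do not cover variation between mice.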

Other observations

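The deposited gene models of a few small RNA genes did not match their RefSeq hairpins. Of 958 miRNA genes with a RefSeq hairpin, 39 stood at other coordinates, with a median length of 54 bases, and 5 of these were expressed. Mir325, modelled with 27 bases at chr13:107761061-107761087 inside the host Zswim6, had 2.86 and 0.461 TPM, and its values may not describe the annotated miRNA. Mir680-2 (4.51 and 4.23 TPM), Mir1191 (2.93 and 1.93 TPM), Mir6481 (2.10 and 1.02 TPM) and Mir215 (2.01 and 1.15 TPM) were the others.

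Mir302a, Mir302c and Mir302d, a cluster known from pluripotent cells, had a summed level of 4.06 TPM (wild-type label) and 1.77 TPM (KO label), in introns of a non-coding host, Gm51018, at 1.71 and 1.69 TPM. Of these Mir302c was called lower, on 2.26 reads and with a ratio interval that held 1. The strand of the reads at this cluster is not known. Mir378b, on the strand opposite another gene, had 21.1 TPM (14.8 to 29.0) and 5.12 TPM (2.60 to 9.04), 4.11-fold lower (2.08 to 8.80) on 48.3 reads. Snord52 in 1110038B12Rik had 26.2 and 12.3 TPM, 2.13-fold lower (1.3003 to 3.54) on 73.6 reads. Of the 13 expressed genes listed at 0 in the library labelled KO, the highest level in the other library was 2.90 TPM, and of the 6 listed at 0 in the library labelled wild-type it was 2.81 TPM. These genes were chosen after their values were seen.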
